A study of Mus musculus with 6 samples.

Results

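The proteasome genes of mouse liver were followed in ribosome-bound mRNA after repression of Neurl1b. They were taken as the symbols of the deposited table that begin with Psma, Psmb, Psmc, Psmd, Psme, Psmf or Psmg followed by a digit, leaving out the -ps pseudogene symbols, with transcripts summed per symbol. Of 51 such symbols, 49 had a mean level of at least 1 TPM (the length-corrected share of a library that a gene's transcripts make up, on a scale with a total of 1000000) over the 6 libraries, among 10598 genes that reached this level. Psmb11, the thymus-specific catalytic subunit, averaged 0.0093 TPM and Psme2b 0.31 TPM, and neither passed. By role, 8 of the 49 are alpha subunits and 7 beta subunits of the core particle, 6 are ATPases and 11 non-ATPase subunits of the regulatory particle, and 3 are catalytic subunits of the immunoproteasome. A further 7 are assembly chaperones and 5 are activators or an inhibitor. The remaining 2, Psmc3ip and Psme3ip1, match the name pattern but encode no subunit.

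The tested libraries came from 3 Neurl1b CRISPRi mice and the controls from 3 mice with a non-targeting guide. In CRISPR interference a guide RNA directs dCas9, a Cas9 that cannot cut, to a gene and so blocks its transcription. Both groups were Fah-/-;dCas9+ mice, which lack the last enzyme of tyrosine breakdown and survive on nitisinone, kept at 7.5 µg/mL until injection. All 6 received 10 µg of a transposon plasmid encoding Fah, a GFP-tagged ribosomal protein and the guide, mixed with an AAV8 virus that carries Cre behind the hepatocyte promoter TBG, by tail vein. Nitisinone was then withheld, so that hepatocytes carrying the plasmid repopulated the liver, which was taken after 4 weeks. Anti-GFP pulldown of tagged ribosomes from 400 mg of liver gave the poly(A) RNA that was sequenced. The liver held its host hepatocytes as well, and only cells with the plasmid carry the tag. Sex, age and strain background are not stated in the labels.

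The proteasome is the large protease that degrades ubiquitin-tagged proteins. Its core particle is a barrel of alpha rings around beta rings, with the active sites on 3 of the beta subunits, and regulatory particles at its ends bind ubiquitin chains, unfold the substrate with a ring of ATPases and feed it into the barrel. Interferon-gamma induces 3 alternative catalytic subunits that replace the constitutive ones to form the immunoproteasome, which favours peptides for MHC class I. When proteasome activity falls short, the transcription factor NFE2L1 induces subunit genes together.

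The depth of each library is unknown, because TPM are shares, and 17813 to 18680 genes per library had a level above 0. Neurl1b, an E3 ubiquitin ligase of Notch ligands, had 0.295, 0.351 and 0.307 TPM in the CRISPRi mice, against 1.22, 0.897 and 0.688 TPM in the non-targeting mice. The groups did not overlap, but at levels this low limma without a level filter gave a log2 fold change of -0.55 (adjusted p = 0.430 over 21941 genes). Hepatocyte markers were abundant in every library with summed levels of 21637 to 29073 TPM in CRISPRi mice and 25182 to 57503 TPM in non-targeting mice, the highest in non-targeting mouse 2. The non-targeting libraries were not alike: the scaling factors that would level the typical gene were 1.092, 1.092 and 1.048 in the CRISPRi mice, and 1.124, 0.8484 and 0.8382 in non-targeting mice 1, 2 and 3. In RNA pulled down with tagged ribosomes, fewer cells of a type and less RNA per cell cannot be told apart.

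Most proteasome genes had slightly higher levels in the Neurl1b CRISPRi mice than in the non-targeting mice, by about as much as the typical gene did, and under median-of-ratios scaling, which levels the typical gene, 25 of the 49 lay above 0 and 24 below. No member passed the test. The 14 constitutive core genes, leaving out the testis-type subunit Psma8, summed to 4028, 3785 and 3430 TPM in the CRISPRi mice, against 3888, 2652 and 3260 TPM in the non-targeting mice. Non-targeting mouse 1 lay among the CRISPRi mice, and non-targeting mouse 2 lay lowest. The 11 non-ATPase genes of the regulatory particle summed to 1358, 1331 and 1212 TPM in the CRISPRi mice, against 1269, 826 and 1068 TPM in the non-targeting mice, with the same order of the control mice. The 3 immunoproteasome genes were placed differently. They summed to 237, 134 and 209 TPM in the CRISPRi mice, against 241, 186 and 220 TPM in the non-targeting mice, and here CRISPRi mouse 2 lay lowest.

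**Figure D1:**
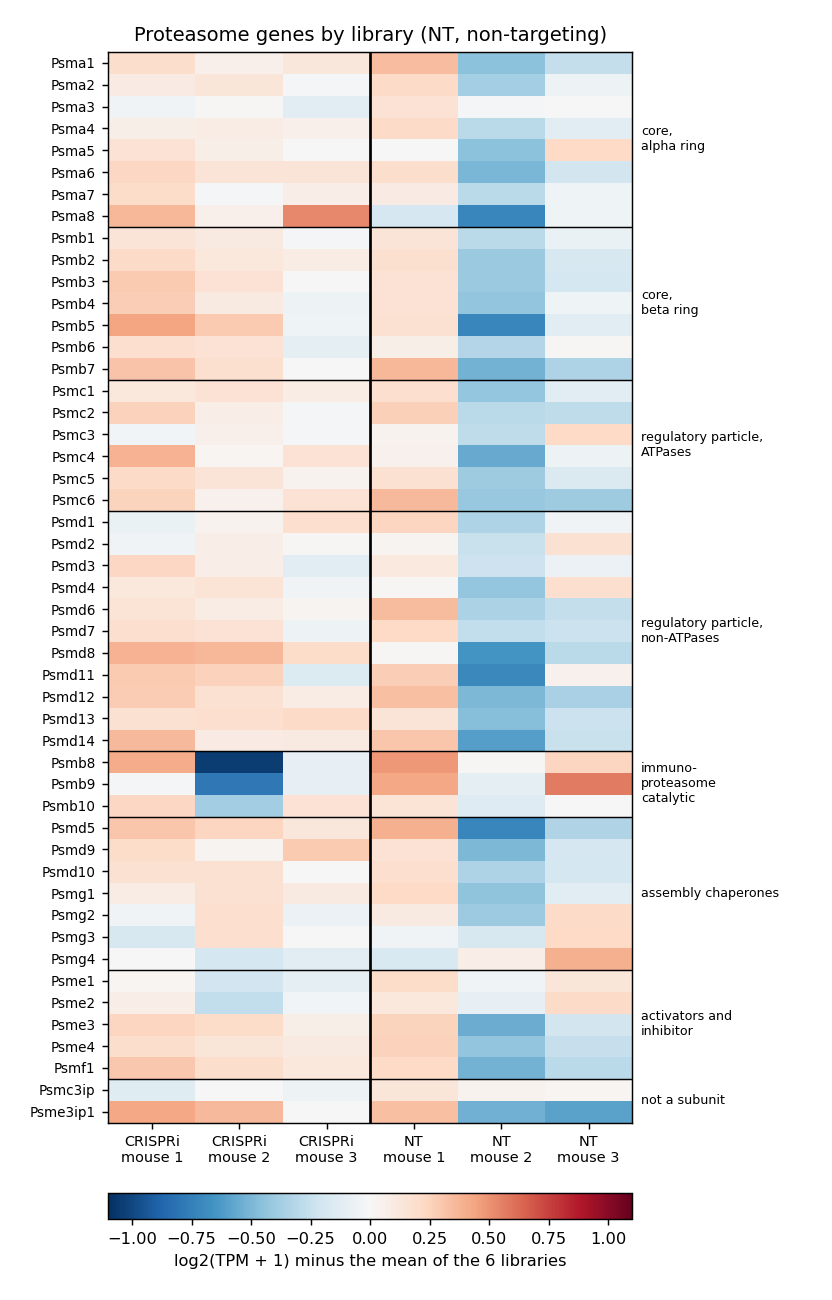
Level of each of the 49 proteasome genes in each library, as log2(TPM + 1) minus that gene's mean over the 6 libraries, with genes grouped by role, CRISPRi mice on the left and non-targeting (NT) mice on the right. Non-targeting mouse 2 was the lowest library in 39 of the 49 genes, while CRISPRi mouse 2 was the lowest in all 3 immunoproteasome genes.

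Across the 49 members, 41 (83.7%) had a log2 fold change above 0, against 74.0% of all 10598 genes. Log2 fold changes are CRISPRi minus non-targeting on log2(TPM + 1), which understates the change of low genes. The median was 0.21 over the members and 0.18 over all genes. With limma and Benjamini-Hochberg adjustment over all genes, 0 members passed an adjusted p of 0.05 (range 0.330 to 1.000), and 2 genes passed in all, both higher (0.0189%). At an unadjusted p below 0.05, 2 members were higher (Psma8 and Psmd8) and 0 lower, against 10.1% and 3.19% of all genes. The groups did not overlap, with CRISPRi higher, in 3 members (Psma8, Psmd8 and Psmd13; 6.12%), against 12.5% of all genes, and with CRISPRi lower in Psmc3ip, against 4.57%. Both shares of higher members lay below those of all genes. Psma8 averaged 1.72 TPM in the CRISPRi mice and 0.770 TPM in the non-targeting mice. It reached the level of 1 TPM only through the CRISPRi mice, so its place among the higher members carries no weight.

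The non-targeting mice differed among themselves in these genes. In 30 members (61.2%) non-targeting mice 2 and 3 both lay below all CRISPRi mice, against 52.4% of all genes, while non-targeting mouse 1 reached at least the lowest CRISPRi mouse in 45 members (91.8%), against 79.6% of all genes. Non-targeting mouse 2 was the lowest of the 6 libraries in 31 of the 32 core and regulatory particle genes, and in 39 of the 49 members (79.6%), against 37.0% of all genes. This was also the library with the highest hepatocyte marker sum, whose part in the result was not tested. CRISPRi mouse 2 was the lowest library in 6 members, against 3.73% of all genes, namely Psmb8, Psmb9, Psmb10, Psme1, Psme2 and Psmg4.

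Without non-targeting mouse 1, 14 members passed as higher (28.6%) and 0 as lower, where 23.1% of all genes passed as higher and 2.24% as lower. The 14 were Psma1, Psma6, Psmb7, Psmc6, Psmd5, Psmd6, Psmd8, Psmd12, Psmd13, Psmd14, Psme3, Psme4, Psmf1 and Psme3ip1, with limma adjusted p from 0.0239 to 0.0479. With median-of-ratios scaling added, 0 members passed without this mouse, against 1.74% of all genes higher and 2.74% lower. With array weights, which give unusual libraries less say, 9 members passed as higher and 0 as lower, against 18.5% and 2.33% of all genes. Under median-of-ratios scaling of all 6 libraries, 2 members had an unadjusted p below 0.05 as higher (Psma8 and Psmd8) and 2 as lower (Psmb9 and Psme1), against 6.44% and 6.66% of all genes. Psma8 was counted here too, although it passed the level filter only through the CRISPRi mice.

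**Figure D2:**
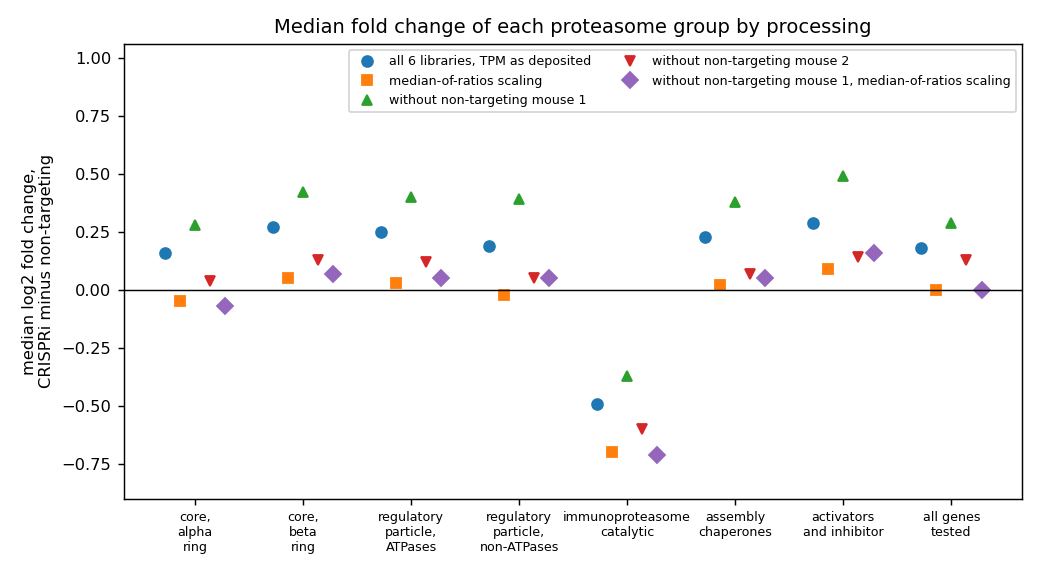
Median log2 fold change (CRISPRi minus non-targeting) of each group of proteasome genes and of all genes, with all 6 libraries, leaving out non-targeting mouse 1 or non-targeting mouse 2, under median-of-ratios scaling, and with that scaling and without non-targeting mouse 1. In this order the immunoproteasome median was -0.49, -0.37, -0.60, -0.70 and -0.71, and the core alpha median 0.16, 0.28, 0.04, -0.05 and -0.07.

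The alpha subunits form the gated entrance of the core. Of the 8, 7 had a log2 fold change above 0 (3 under median-of-ratios scaling), with a median of 0.16. Psma8 replaces Psma7 in germ cells, and its level in liver was low. It measured 1.78, 1.25 and 2.12 TPM in the CRISPRi mice, against 0.904, 0.318 and 1.09 TPM in the non-targeting mice. All CRISPRi mice exceeded all non-targeting mice, with a log2 fold change of 0.63 (SE 0.22, limma adjusted p = 0.344). With means of 1.72 TPM in the CRISPRi mice and 0.770 TPM in the non-targeting mice, Psma8 passed the level filter only through the CRISPRi mice. Its separation therefore carries no weight.

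Psma6 had 198, 187 and 187 TPM in the CRISPRi mice, against 193, 119 and 147 TPM in the non-targeting mice. Of the non-targeting mice, mouse 1 alone reached the CRISPRi range, and the log2 fold change came to 0.34 (SE 0.19, limma adjusted p = 0.429). Psma3 differed from the other alpha genes in that no CRISPRi mouse but the second exceeded any control. It had 349, 361 and 329 TPM in the CRISPRi mice, against 399, 353 and 360 TPM in the non-targeting mice, with a log2 fold change of -0.10 (SE 0.14, limma adjusted p = 0.724). The remaining 5, Psma1, Psma2, Psma4, Psma5 and Psma7, had log2 fold changes of 0.13 to 0.25.

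The beta subunits line the chamber. All 7 constitutive ones had a log2 fold change above 0 (4 under median-of-ratios scaling), with a median of 0.27, and non-targeting mouse 2 was the lowest library in each. Psmb5, the chymotrypsin-like catalytic subunit, had 618, 558 and 443 TPM in the CRISPRi mice, against 513, 277 and 420 TPM in the non-targeting mice. The CRISPRi mice lay above non-targeting mice 2 and 3, with mouse 1 inside the CRISPRi range, and the log2 fold change came to 0.45 (SE 0.24, limma adjusted p = 0.415). Psmb3, a structural subunit, had 310, 285 and 254 TPM in the CRISPRi mice, against 285, 191 and 222 TPM in the non-targeting mice. Its log2 fold change came to 0.30 (SE 0.19, limma adjusted p = 0.455). Psmb1, also structural, differed least, with 200, 193 and 179 TPM in the CRISPRi mice, against 199, 147 and 172 TPM in the non-targeting mice, and a log2 fold change of 0.15 (SE 0.16, limma adjusted p = 0.631).

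Within the core the genes differed far more from each other than between groups. Over the 6 libraries the mean level of the 14 constitutive genes had a median of 219 TPM and ran from 62.8 TPM for Psma2, the lowest in 6 of 6 libraries, to 484 TPM for Psmb6, the highest in 3. The highest gene exceeded the lowest by 7.09-fold to 9.29-fold in a library, although the subunits enter the particle in equal numbers. TPM are corrected for transcript length, but the sums also depend on how reads were divided among the transcripts of each gene. The most abundant transcript made up 66.1% of Psma2 TPM and 70.4% of Psmb6 TPM. The range between genes is therefore approximate.

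**Figure D3:**
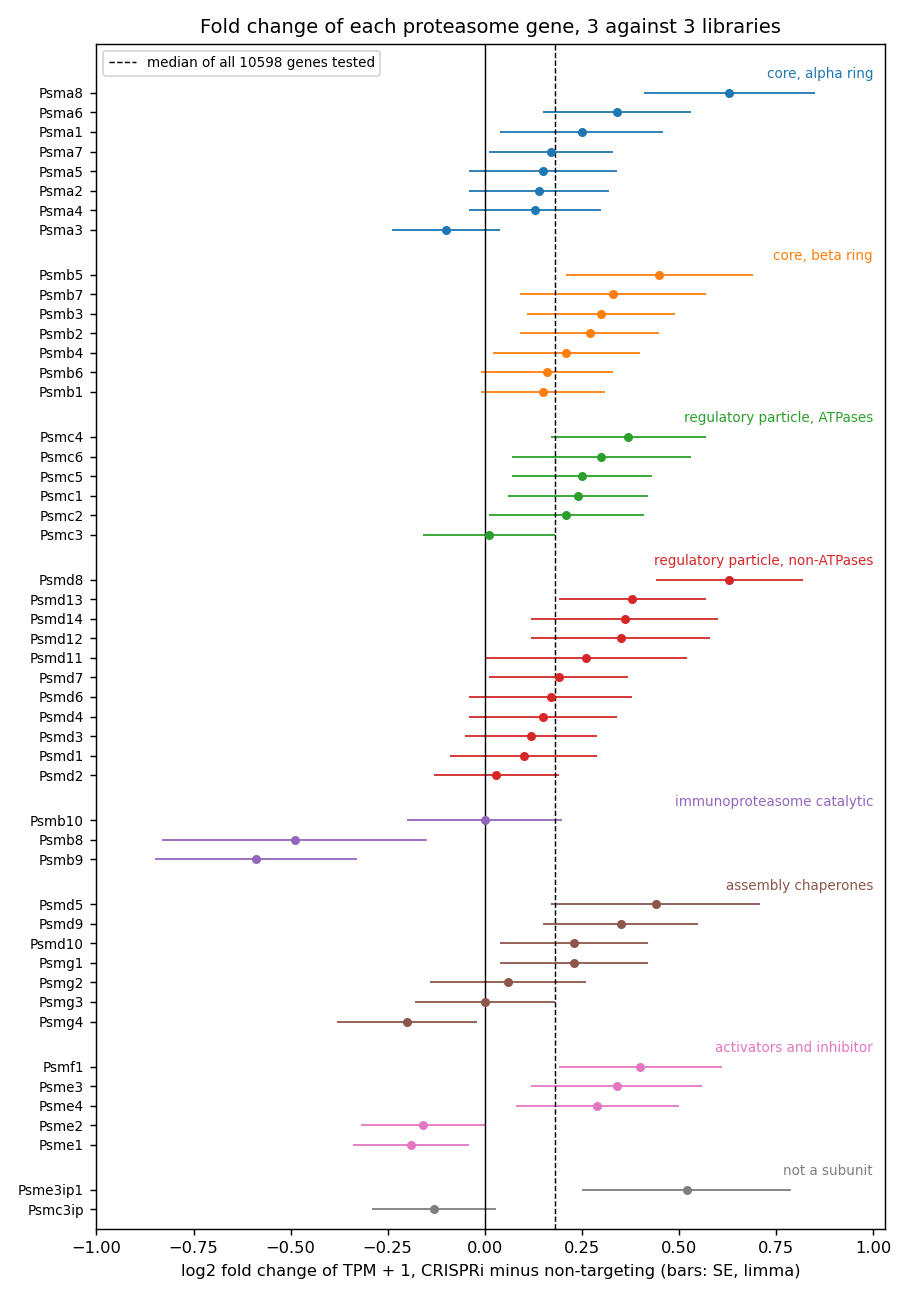
Log2 fold change (CRISPRi minus non-targeting, log2(TPM + 1) scale) of the 49 proteasome genes with its standard error, grouped by role, beside the median of all genes at 0.18. Of the 32 core and regulatory particle genes, 19 lie above that median, and Psmb8 and Psmb9 lie lowest, at -0.49 and -0.59.

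The 3 active sites of the core exist in a constitutive and an interferon-inducible form, so each pair shows how much of a site's mRNA is of the immunoproteasome type. The promoters of Psmb5, Psmb6, Psmb8 and Psmb9 are shown because the shares of these pairs did not overlap between the groups. The capitals mark the antioxidant response element core TGACNNNGC, the class bound by NFE2L1 and NFE2L2, in Psmb5 (GRCm38.p6, chr14:54617946-54618245, minus strand, 47 bases upstream of the start) and in Psmb6 (chr11:70525107-70525406, plus strand, 9 bases upstream). In Psmb8 (chr17:34197945-34198244, plus strand) they mark an interferon-gamma-activated site, TTCNNNGAA, 97 bases upstream. In Psmb9 (chr17:34187281-34187580, minus strand) they mark CCAAT, the class bound by NF-Y, read on the other strand and 8 bases upstream.
Psmb5: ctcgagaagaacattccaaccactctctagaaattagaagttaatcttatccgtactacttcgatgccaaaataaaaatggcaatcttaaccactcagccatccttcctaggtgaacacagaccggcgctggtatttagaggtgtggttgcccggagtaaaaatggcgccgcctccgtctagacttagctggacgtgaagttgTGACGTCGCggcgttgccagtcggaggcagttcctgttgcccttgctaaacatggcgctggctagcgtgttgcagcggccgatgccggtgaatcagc
Psmb6: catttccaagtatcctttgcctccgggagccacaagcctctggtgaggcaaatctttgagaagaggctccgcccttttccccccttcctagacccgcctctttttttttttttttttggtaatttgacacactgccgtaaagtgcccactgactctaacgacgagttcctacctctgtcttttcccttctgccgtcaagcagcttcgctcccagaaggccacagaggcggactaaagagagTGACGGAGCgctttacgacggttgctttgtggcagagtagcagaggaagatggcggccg
Psmb8: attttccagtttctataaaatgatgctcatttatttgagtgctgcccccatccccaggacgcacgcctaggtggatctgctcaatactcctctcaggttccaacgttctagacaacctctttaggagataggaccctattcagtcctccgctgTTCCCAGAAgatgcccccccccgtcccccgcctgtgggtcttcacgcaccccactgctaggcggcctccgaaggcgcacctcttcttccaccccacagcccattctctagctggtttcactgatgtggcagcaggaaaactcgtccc
Psmb9: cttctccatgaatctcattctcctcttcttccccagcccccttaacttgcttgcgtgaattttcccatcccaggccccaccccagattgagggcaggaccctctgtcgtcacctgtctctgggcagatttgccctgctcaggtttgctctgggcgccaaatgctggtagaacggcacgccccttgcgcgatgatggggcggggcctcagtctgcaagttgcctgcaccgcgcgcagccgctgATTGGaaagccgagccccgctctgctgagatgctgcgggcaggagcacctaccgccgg
Each sequence runs 5′ to 3′ from 250 bases before to 50 bases after the RefSeq start. RefSeq promoters were matched for 41 of the 49 members (45 promoters), and each motif was searched on both strands. TGACNNNGC was in 6 of these 45 (13.3%), against 12.4% of all 32851 promoters of this length. CCAAT was in 15 (33.3%), against 37.4%, TTCNNNGAA in 3 (6.67%), against 8.3%, and the interferon-stimulated response element (ISRE) core in 5 (11.1%), against 3.44%. The ISRE core was in the promoters of Psmb3, Psmd4, Psmd9, Psme1 and Psmg4, and in 0 of the 3 immunoproteasome promoters. A match describes the letters of this window and is not a site shown to be bound.

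Psmb8, the immunoproteasome form of Psmb5, had 64.1, 22.9 and 45.1 TPM in the CRISPRi mice, against 67.6, 48.7 and 56.8 TPM in the non-targeting mice. CRISPRi mouse 1 lay among the controls and CRISPRi mouse 2 far below all other libraries, and the log2 fold change came to -0.49 (SE 0.34, limma adjusted p = 0.484). As a share of Psmb8 plus Psmb5 it made up 9.40%, 3.94% and 9.24% in the CRISPRi mice, against 11.6%, 15.0% and 11.9% in the non-targeting mice. Here the groups did not overlap. The share was 7.53% ± 3.11 in the CRISPRi mice and 12.8% ± 1.84 in the non-targeting mice (SD, n = 3 each), and the ratio of Psmb8 to Psmb5 was 1.94-fold lower in the CRISPRi mice. The shares and ratios of the pairs are descriptions with no test, since they were chosen after the values were seen. How often the shares of other gene pairs separate in this way was not counted. For a different ratio, each gene as a percentage of the summed core TPM, 7.16% of all genes were lower without overlap. Without CRISPRi mouse 2 the difference in the share of Psmb8 was -3.52 percentage points, against -5.31 with all mice. With only the most abundant transcript of each gene it was -4.04, and the groups stayed apart.

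Psmb9, the immunoproteasome form of Psmb6, the caspase-like site, had 23.8, 13.5 and 22.5 TPM in the CRISPRi mice, against 32.5, 22.2 and 36.2 TPM in the non-targeting mice. Non-targeting mouse 2 lay among the CRISPRi mice, and the log2 fold change came to -0.59 (SE 0.26, limma adjusted p = 0.381). Psmb6 itself had 545, 536 and 448 TPM in the CRISPRi mice, against 503, 384 and 485 TPM in the non-targeting mice, with a log2 fold change of 0.16 (SE 0.17, limma adjusted p = 0.628). The share of Psmb9 in the pair was 4.19%, 2.47% and 4.78% in the CRISPRi mice, against 6.06%, 5.46% and 6.94% in the non-targeting mice. The groups again did not overlap, with means of 3.81% ± 1.20 in the CRISPRi mice and 6.15% ± 0.740 in the non-targeting mice (SD, n = 3 each). The ratio was 1.71-fold lower in the CRISPRi mice. With only the most abundant transcript of each gene, the difference in the share was smaller, at -1.06 percentage points against -2.34. The groups then stayed apart by a narrow margin, at 3.53% or less in the CRISPRi mice and 3.61% or more in the non-targeting mice.

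Psmb10, the immunoproteasome form of Psmb7, the trypsin-like site, had 149, 97.3 and 142 TPM in the CRISPRi mice, against 141, 115 and 127 TPM in the non-targeting mice. Its log2 fold change came to 0.00 (SE 0.20, limma adjusted p = 0.995). Psmb7 had 294, 268 and 238 TPM in the CRISPRi mice, against 306, 165 and 187 TPM in the non-targeting mice, with a log2 fold change of 0.33 (SE 0.24, limma adjusted p = 0.501). The share of Psmb10 was 33.7%, 26.6% and 37.4% in the CRISPRi mice, against 31.5%, 41.2% and 40.3% in the non-targeting mice. These ranges overlapped, with means of 32.6% ± 5.49 and 37.7% ± 5.36 (SD, n = 3 each) and a ratio 1.25-fold lower in the CRISPRi mice. The difference in the share, -5.09 percentage points, was -2.11 without CRISPRi mouse 2 and -8.18 without non-targeting mouse 1. With only the most abundant transcript of each gene it was -2.70. That transcript made up 39.3% of Psmb10 TPM. Over the 3 immunoproteasome genes the median log2 fold change of -0.49 became -0.09 without CRISPRi mouse 2.

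**Figure D4:**
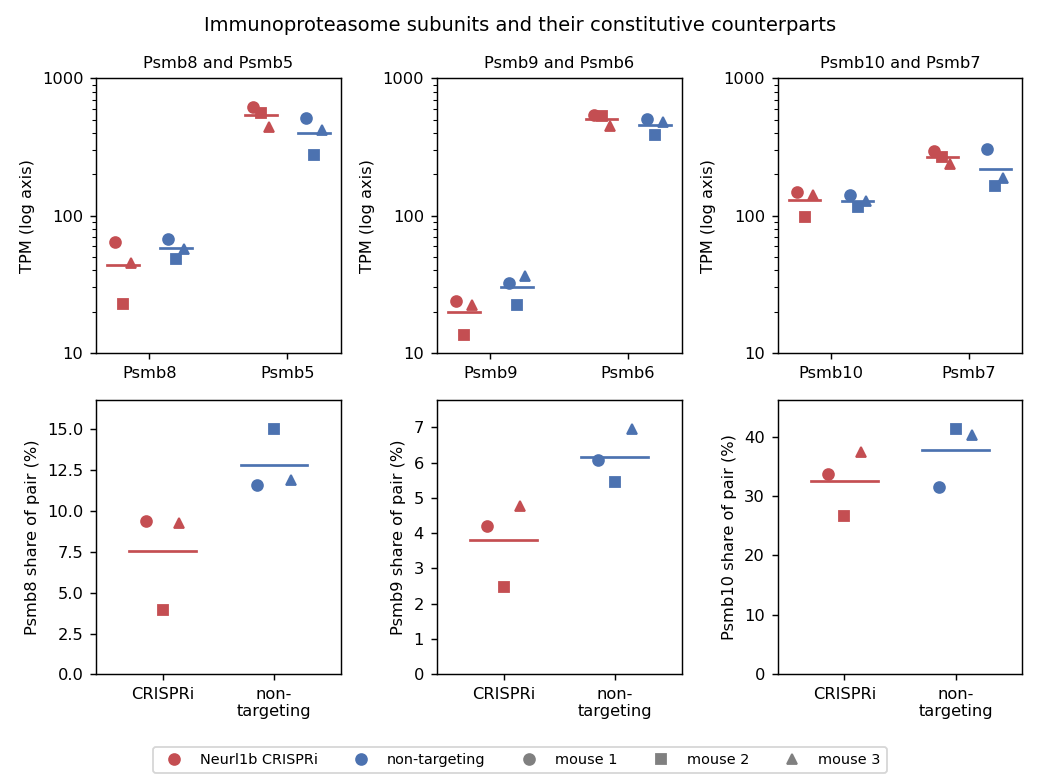
Upper row, TPM on a log axis of each immunoproteasome gene and its constitutive counterpart; lower row, the immunoproteasome gene as a percentage of the summed TPM of the pair, in each CRISPRi mouse (left) and non-targeting mouse (right), with lines at the group means. Psmb8 and Psmb9 shares do not overlap between groups (3.94% to 9.40% against 11.6% to 15.0%, and 2.47% to 4.78% against 5.46% to 6.94%), while those of Psmb10 do. The separation of other gene pairs was not counted for comparison.

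Markers of other liver cell types, some of which carry the immunoproteasome, were read in the same libraries. The 7 leukocyte markers summed to 22.9, 17.5 and 26.1 TPM in the CRISPRi mice, against 17.1, 22.4 and 27.4 TPM in the non-targeting mice, and 4 of the 7 had a mean below 1 TPM, with Cd79a at 0 in CRISPRi mouse 3 and non-targeting mouse 1. Kupffer cell markers summed to 82.4, 55.7 and 89.1 TPM in the CRISPRi mice, against 38.7, 50.1 and 67.0 TPM in the non-targeting mice. CRISPRi mouse 2, the lowest library for Psmb8, Psmb9 and Psmb10, had the lowest leukocyte and Kupffer cell sums of the CRISPRi mice. Over all 6 libraries, however, both sums were lowest in non-targeting mouse 1, the library with the highest Psmb8 level (67.6 TPM). Endothelial markers ranged from 14.9 to 21.4 TPM in the CRISPRi mice and from 14.6 to 20.3 TPM in the non-targeting mice, and bile duct markers from 15.9 to 23.8 TPM and from 13.3 to 25.7 TPM. Summed stellate cell markers did not overlap between groups, at 30.9 to 42.9 TPM in the CRISPRi mice and 12.1 to 25.5 TPM in the non-targeting mice. Dcn made up the largest part, at means of 20.8 and 9.63 TPM. Of the 6 genes, 4 were higher without overlap, against 12.5% of all genes, while Col1a1 and Col3a1 overlapped. The mean of 1 of the 6 was below 1 TPM. Only cells with the plasmid carry the ribosome tag, so these sums do not measure how many cells of each type the liver held. The part of these cells in the proteasome values was not tested.

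In the regulatory particle, the 6 ATPases, which unfold substrates, all had a log2 fold change above 0 (5 under median-of-ratios scaling), with a median of 0.25. Psmc4 had 141, 110 and 121 TPM in the CRISPRi mice, against 112, 73.5 and 104 TPM in the non-targeting mice. Only CRISPRi mouse 2 lay below a control, and the log2 fold change came to 0.37 (SE 0.20, limma adjusted p = 0.411). Psmc5 had 107, 102 and 94.9 TPM in the CRISPRi mice, against 104, 70.3 and 83.0 TPM in the non-targeting mice, with a log2 fold change of 0.25 (SE 0.18, limma adjusted p = 0.495). Psmc3, the most abundant ATPase mRNA in 6 of 6 libraries, had 183, 194 and 185 TPM in the CRISPRi mice, against 192, 154 and 217 TPM in the non-targeting mice. Its log2 fold change came to 0.01 (SE 0.17, limma adjusted p = 0.970), and its controls spread on both sides of the CRISPRi mice. The most abundant ATPase exceeded the least abundant by 3.05-fold to 5.82-fold in a library.

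The 11 non-ATPase subunits include the ubiquitin receptors, the lid and its deubiquitinase Psmd14. All 11 had a log2 fold change above 0 (5 under median-of-ratios scaling), with a median of 0.19. Psmd8, a lid subunit and the most abundant of them in 6 of 6 libraries, had the smallest unadjusted p of the 49 members. It had 425, 420 and 376 TPM in the CRISPRi mice, against 330, 206 and 265 TPM in the non-targeting mice. Every CRISPRi mouse exceeded every control, and the ratio of means was 1.53, with a log2 fold change of 0.63 (SE 0.19, limma unadjusted p = 0.0107, adjusted p = 0.330).

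Psmd13, another lid subunit, had 104, 105 and 107 TPM in the CRISPRi mice, against 102, 66.2 and 78.0 TPM in the non-targeting mice. The CRISPRi values lay close together, just above non-targeting mouse 1, with a log2 fold change of 0.38 (SE 0.19, limma adjusted p = 0.399). Psmd2, a scaffold of the base, had 113, 122 and 117 TPM in the CRISPRi mice, against 119, 98.2 and 131 TPM in the non-targeting mice, with a log2 fold change of 0.03 (SE 0.16, limma adjusted p = 0.941). The other 8 had log2 fold changes of 0.10 (Psmd1) to 0.36 (Psmd14).

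Assembly chaperones guide subunits into place and leave the finished particle. Of the 7, 5 had a log2 fold change above 0 (4 under median-of-ratios scaling), with a median of 0.23. Psmd5, Psmd9 and Psmd10 act on the base of the regulatory particle. Psmd9 had 84.8, 75.1 and 90.4 TPM in the CRISPRi mice, against 82.4, 52.0 and 64.6 TPM in the non-targeting mice (log2 fold change 0.35, SE 0.20, limma adjusted p = 0.431). Psmd5 had 65.8, 62.6 and 58.0 TPM in the CRISPRi mice, against 69.9, 31.9 and 42.1 TPM in the non-targeting mice (log2 fold change 0.44, SE 0.27, limma adjusted p = 0.447). Psmd10, also known as gankyrin, had 18.9, 18.9 and 16.8 TPM in the CRISPRi mice, against 19.1, 13.0 and 14.5 TPM in the non-targeting mice (log2 fold change 0.23, SE 0.19, limma adjusted p = 0.537). In Psmd5 and Psmd10 non-targeting mouse 1 was the highest of the 6 libraries, and in all 3 non-targeting mouse 2 was the lowest.

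Psmg1 to Psmg4 build the alpha ring. Psmg1 had 48.0, 51.0 and 48.7 TPM in the CRISPRi mice, against 52.9, 33.1 and 41.5 TPM in the non-targeting mice (log2 fold change 0.23, limma adjusted p = 0.550). Its partner Psmg2 had 23.6, 27.7 and 23.1 TPM in the CRISPRi mice, against 26.0, 18.1 and 28.2 TPM in the non-targeting mice (log2 fold change 0.06, limma adjusted p = 0.890). Psmg1 and Psmg2 thus both had their lowest level in non-targeting mouse 2, but the controls of Psmg2 spread on both sides of the CRISPRi mice. Psmg3 had 31.1, 40.3 and 35.2 TPM in the CRISPRi mice, against 34.4, 31.1 and 41.2 TPM in the non-targeting mice (log2 fold change -0.00, limma adjusted p = 1.000). Its partner Psmg4 had 88.6, 77.3 and 81.5 TPM in the CRISPRi mice, against 78.5, 93.2 and 116 TPM in the non-targeting mice (log2 fold change -0.20, limma adjusted p = 0.576). For Psmg4 non-targeting mouse 2 was not low but the second highest library.

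The activators open the core without ubiquitin, and with the inhibitor 3 of the 5 genes had a log2 fold change above 0, also under median-of-ratios scaling. Psme1 and Psme2 form the interferon-inducible PA28 ring. Psme1 had 235, 200 and 216 TPM in the CRISPRi mice, against 266, 225 and 255 TPM in the non-targeting mice, with a log2 fold change of -0.19 (SE 0.15, limma adjusted p = 0.522). Psme2 had 310, 245 and 289 TPM in the CRISPRi mice, against 320, 277 and 342 TPM in the non-targeting mice, with a log2 fold change of -0.16 (SE 0.16, limma adjusted p = 0.624). In both, CRISPRi mouse 2 was the lowest library, as it was in the 3 immunoproteasome genes. The most abundant Psme1 transcript made up 83.1% to 83.9% of its TPM in the CRISPRi mice and 50.1% to 81.7% in the non-targeting mice. For Psme2 this was 91.8% to 94.8% and 60.9% to 93.9%. Both sums thus held a larger part of other transcripts in some non-targeting mice, and the main transcripts alone were not compared.

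Psme3 encodes the nuclear activator of the PA28 family and Psme4 the activator PA200. Psme3 had 44.7, 43.7 and 39.6 TPM in the CRISPRi mice, against 45.0, 25.6 and 32.7 TPM in the non-targeting mice (log2 fold change 0.34, limma adjusted p = 0.461). Psme4 had 16.9, 16.2 and 15.8 TPM in the CRISPRi mice, against 17.7, 10.6 and 12.1 TPM in the non-targeting mice (log2 fold change 0.29, limma adjusted p = 0.501). In both, non-targeting mouse 2 was the lowest library, as in the core genes, and not CRISPRi mouse 2. Psmf1, which encodes PI31, an inhibitor of the core in vitro, had 48.0, 44.7 and 42.4 TPM in the CRISPRi mice, against 45.5, 26.9 and 31.5 TPM in the non-targeting mice (log2 fold change 0.40, SE 0.21, limma adjusted p = 0.408).

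Psmc3ip, a partner of recombinases in meiosis, had 3.43, 3.87 and 3.67 TPM in the CRISPRi mice, against 4.34, 3.98 and 3.93 TPM in the non-targeting mice (log2 fold change -0.13, limma adjusted p = 0.681). Psme3ip1, which encodes a protein that binds the Psme3 product, had 34.3, 32.7 and 25.2 TPM in the CRISPRi mice, against 32.1, 17.2 and 16.5 TPM in the non-targeting mice (log2 fold change 0.52, limma adjusted p = 0.406).

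Each gene was also set against the constitutive core of its own library, a ratio in which a factor common to a library drops out. As a percentage of the summed core TPM, 3 members were higher in every CRISPRi mouse than in every non-targeting mouse, against 9.40% of all genes, and 5 were lower, against 7.16%. Psmd8 stood at 10.6%, 11.1% and 11.0% of the core sum in the CRISPRi mice, against 8.49%, 7.75% and 8.13% in the non-targeting mice. The groups were apart by more than their spread, and non-targeting mouse 1, which lay among or above the CRISPRi mice in most members, lay below them here. Psmb3 and Psmf1 were higher by narrow margins, Psmb3 at 7.41% or more in the CRISPRi mice and 7.32% or less in the non-targeting mice, Psmf1 at 1.18% or more and 1.17% or less.

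Among the lower ones, Psma3 stood at 8.67%, 9.54% and 9.60% of the core sum in the CRISPRi mice, against 10.3%, 13.3% and 11.0% in the non-targeting mice, and is itself a member of that sum. Psmb9 stood at 0.592%, 0.358% and 0.655% in the CRISPRi mice, against 0.836%, 0.837% and 1.11% in the non-targeting mice. Psmb8 stood at 1.59%, 0.604% and 1.31% in the CRISPRi mice, against 1.74%, 1.84% and 1.74% in the non-targeting mice. The 3 control values of Psmb8 lay close together, while the CRISPRi values spread widely. Psme1 stood at 5.84%, 5.30% and 6.30% in the CRISPRi mice, against 6.85%, 8.50% and 7.83% in the non-targeting mice, and Psmc3ip was lower as well. The Psme1 values sum transcripts whose proportions differed between the groups, and its main transcript alone was not compared. These groupings are descriptions with no test, since the ratio was chosen after the values were seen.

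**Figure D5:**
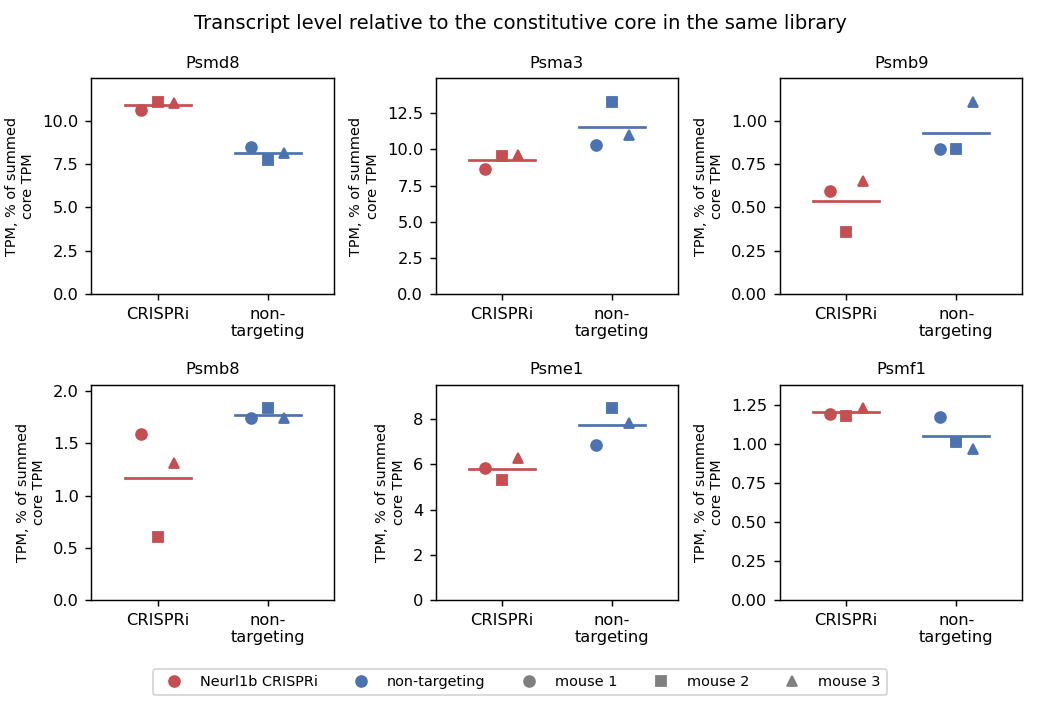
TPM of 6 proteasome genes as a percentage of the summed TPM of the 14 constitutive core genes in the same library, for CRISPRi mice (left) and non-targeting mice (right), with lines at the group means. Psmd8 lay at 10.6% to 11.1% in the CRISPRi mice and 7.75% to 8.49% in the non-targeting mice, and Psmb9 at 0.358% to 0.655% and 0.836% to 1.11%.

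Further proteasome-linked genes were read from the same fit. Of 17 proteasome factors with other names, 13 had a log2 fold change above 0 (median 0.20, and -0.01 under median-of-ratios scaling), 0 passed over all genes, and 1 was higher and 0 lower at an unadjusted p below 0.05, against 10.1% and 3.19% of all genes. The 3 with the smallest p were the shuttle factor Ubqln2 at 0.87 (limma adjusted p = 0.344), the proteasome-binding zinc finger protein Zfand5 at 0.63 (limma adjusted p = 0.389) and the shuttle factor Ubqln4 at 0.40 (limma adjusted p = 0.394). Outside the rule for named genes, Sem1, the smallest lid subunit, was chosen after its values were seen. It had 104, 126 and 97.9 TPM in the CRISPRi mice, against 110, 150 and 183 TPM in the non-targeting mice, with non-targeting mouse 1 inside the CRISPRi range and the other non-targeting mice above it, and a log2 fold change of -0.41 (SE 0.21, limma adjusted p = 0.408). Without non-targeting mouse 1 it was lower, at -0.60 (limma adjusted p = 0.0453). The ubiquitin receptor Adrm1, at -0.09 (limma adjusted p = 0.764), and the core assembly factor Pomp, at 0.26 (limma adjusted p = 0.473), were also chosen after their values were seen.

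Of 14 genes of proteasome gene regulation, 13 had a log2 fold change above 0 (median 0.24, and 0.03 under median-of-ratios scaling), with 0 passing over all genes and 4 higher and 0 lower at an unadjusted p below 0.05 (10.1% and 3.19% of all genes). Nfe2l1, whose product induces subunit genes, had 28.3, 27.0 and 24.6 TPM in the CRISPRi mice, against 24.5, 21.6 and 30.7 TPM in the non-targeting mice, with a log2 fold change of 0.07 (SE 0.18, limma adjusted p = 0.853). Ddi2, the protease that activates it, was at 0.12 (limma adjusted p = 0.737) and Ngly1, which removes its sugars, at 0.14 (limma adjusted p = 0.735). Nfe2l2, the oxidative stress factor, had 37.8, 46.5 and 41.7 TPM in the CRISPRi mice, against 37.5, 18.3 and 27.0 TPM in the non-targeting mice. All CRISPRi mice exceeded all non-targeting mice, mouse 1 of each group by a narrow margin, with a log2 fold change of 0.64 (SE 0.25, limma adjusted p = 0.352). Its small Maf partners had the smallest p of the list, Maff at 1.05 (limma adjusted p = 0.339), Mafk at 0.71 (limma adjusted p = 0.349) and Mafg at 0.60 (limma adjusted p = 0.352).

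Of 15 genes of ubiquitin supply and the p97 unfoldase, 14 had a log2 fold change above 0 (median 0.31, and 0.10 under median-of-ratios scaling), with 0 passing over all genes and 2 higher and 0 lower at an unadjusted p below 0.05 (10.1% and 3.19% of all genes). Ufd1, a p97 cofactor, was at 0.60 (limma adjusted p = 0.370) and the polyubiquitin gene Ubb at 0.53 (limma adjusted p = 0.381).

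Of 13 genes of class I presentation and the interferon response, 8 had a log2 fold change above 0 (median 0.09, and -0.12 under median-of-ratios scaling), with 0 passing over all genes and 0 higher and 1 lower at an unadjusted p below 0.05 (10.1% and 3.19% of all genes). That gene was H2-K1, a class I heavy chain, with 598, 462 and 460 TPM in the CRISPRi mice, against 637, 821 and 811 TPM in the non-targeting mice. The groups did not overlap, and the log2 fold change came to -0.58 (SE 0.18, limma adjusted p = 0.330). The list's next smallest p belonged to the interferon-induced genes Isg15, at 0.34 (limma adjusted p = 0.474), and Ifit1, at 0.22 (limma adjusted p = 0.526). Besides H2-K1, 4 members were below 0, named after their values were seen, with Irf7 at -0.15, the class I light chain B2m at -0.12, the peptide transporter subunit Tap1 at -0.06 and the class I heavy chain H2-D1 at -0.03. Without non-targeting mouse 1, 7 genes of the first list, 6 of the second and 9 of 14 of the third passed as higher, against 23.1% of all genes, and 0 of the fourth, while 1 gene each of the first and the fourth passed as lower, against 2.24%.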

How the data were processed

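Ribosome-bound poly(A) RNA of 6 mouse livers was analysed from the authors' deposited table of TPM per transcript, 117486 transcripts with gene symbols. The submitters' processing notes name kallisto and the genome build mm39. The sources used here do not give the kallisto version, transcript set or filters. kallisto divides reads between similar transcripts by estimation, so near-identical copies are uncertain. Each column summed to 999999.8 to 1000000.2. The 168 transcripts without a symbol (116.0 to 142.6 TPM per library) were left out.

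TPM were summed per symbol, and 10598 genes with a mean of at least 1 TPM entered a limma 3.58.1 fit of log2(TPM + 1), run in R 4.3.3 (trended empirical Bayes, two-sided, no covariate, Benjamini-Hochberg over all genes, threshold 0.05). The script was tested on simulated data. Groups and mouse numbers came from the sample titles, and p-values measure the spread between mice.

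Named are the catalytic pairs, activators, inhibitor and chaperones, the 2 members with the smallest and the 1 with the largest p in each other group, and, of each other list, up to 3 with the smallest p besides Nfe2l1, Nfe2l2, Ddi2 and Ngly1, except that 1 gene this rule takes is not reported here. Members and lists were chosen with earlier results of these data known. The pair shares, levels relative to the core and the interferon motifs were added after the values were seen and are given without a p-value. Promoters are from RefSeq (GRCm38.p6, another build than the table's) and were matched by symbol. Paaf1 and Tf were not analysed here. The alternatives were other pseudocounts, filters and scalings, array weights, a robust prior, a block for mouse number, and each mouse left out.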

Additional observations from a re-analysis of the deposited data

How the results depend on the processing

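The call of 0 members held in the fits with another pseudocount, filter, scaling, robust prior or mouse block, and ended with array weights (9 members higher, 1963 genes higher and 247 lower in all) and without non-targeting mouse 1. Leaving out each mouse in turn gave 0 to 14 members and 0 to 2436 genes higher, with 0 to 237 genes lower. Genes called higher numbered 0 with a pseudocount of 5, without a filter and with quantile normalization, 1 with a mean TPM of at least 5, and 184, with 289 lower, without non-targeting mouse 1 under median-of-ratios scaling. Mouse numbers did not pair the libraries (correlations of same-numbered deviations 0.0614, -0.096 and -0.277), and with the mouse number as a replicate block 2 genes were higher and 0 members passed. Group medians kept their sign in the leave-one-out fits, where they ran from 0.04 to 0.28 for core alpha, 0.13 to 0.42 for core beta, 0.12 to 0.40 for ATPases, 0.05 to 0.39 for non-ATPases, -0.73 to -0.09 for the immunoproteasome, 0.07 to 0.38 for chaperones and 0.14 to 0.49 for activators. Under median-of-ratios scaling they were -0.05 for core alpha and -0.02 for non-ATPases, both of the opposite sign, and 0.05 for core beta, -0.70 for the immunoproteasome, 0.03 for ATPases, 0.02 for chaperones and 0.09 for activators. Without non-targeting mouse 1 under that scaling, core alpha was at -0.07 and chaperones at 0.05. With quantile normalization, chaperones were at 0.05. Leaving out each mouse, the share differences ran from -6.25 to -3.52 percentage points for Psmb8, -2.82 to -1.67 for Psmb9 and -8.18 to -2.11 for Psmb10. The main transcript alone gave -4.04 for Psmb8, -1.06 for Psmb9 and -2.70 for Psmb10. Log2 fold changes of the opposite sign, none of them called, were as follows. Under median-of-ratios scaling these were Psma2 at -0.07, Psma4 at -0.08, Psma5 at -0.06, Psma7 at -0.04, Psmb1 at -0.06, Psmb10 at -0.21, Psmb4 at -0.00379, Psmb6 at -0.06, Psmc3 at -0.20, Psmd1 at -0.11, Psmd2 at -0.19, Psmd3 at -0.09, Psmd4 at -0.06, Psmd6 at -0.04, Psmd7 at -0.02, Psmg2 at -0.15, Nfe2l1 at -0.14, Ddi2 at -0.08 and Ngly1 at -0.05. With that scaling and without non-targeting mouse 1, Psma2 at -0.06, Psma4 at -0.08, Psma5 at -0.16, Psma7 at -0.09, Psmb1 at -0.09, Psmb10 at -0.27, Psmb4 at -0.01, Psmb6 at -0.12, Psmc3 at -0.31, Psmd1 at -0.11, Psmd2 at -0.30, Psmd3 at -0.14, Psmd4 at -0.15, Psmg2 at -0.22, Ifit1 at -0.06, Nfe2l1 at -0.30 and Ddi2 at -0.07 had the opposite sign. With quantile normalization these were Psmb10 at -0.09, Psmc3 at -0.05, Psmd1 at -0.05, Psmd2 at -0.06, Psmg2 at -0.10, Nfe2l1 at -0.10, Ddi2 at -0.05 and Ngly1 at -0.04. With array weights they were Psmb10 at -0.14 and Psmg3 at 0.07. Leaving out each mouse in turn crossed 0 for Psmb10 from -0.11 to 0.20, Psmg3 from -0.09 to 0.11, Psmc3 from -0.12 to 0.13, Psmd2 from -0.09 to 0.12, Psmg2 from -0.13 to 0.18, Psma2 from -0.01 to 0.28, Psma5 from -0.03 to 0.30, Psmd1 from -0.05 to 0.24, Psmd11 from -0.03 to 0.46, Psmd4 from -0.02 to 0.28 and Nfe2l1 from -0.04 to 0.20. The cause of these changes was not tested. TPM give no depth, so no limit of detection can be set.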
